A study of Mus musculus with 12 samples.

Results

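The 8 genes described here, Neurod6, Bok, Ociad2, Mpped1, Spink8, Fibcd1, Wfs1 and Grik4, are genes of the pyramidal neurons of the cornu ammonis (CA), and they were taken by name from a table of 27833 genes. All 8 passed the filter of a mean FPKM of at least 0.5, as did 13796 genes in all. All levels below are in FPKM, which counts the fragments on a gene relative to its length and to the depth of the library. RNA was extracted from the hippocampus of naturally aged mice, wild-type males of the C57BL/6J strain aged 20 months, and sequenced in 12 libraries. The CON group (3 libraries) received normal saline by oral gavage, the PQQ-L group (5 libraries) received 5 mg/kg/day of pyrroloquinoline quinone (PQQ, a quinone redox cofactor) and the PQQ-H group (4 libraries) received 10 mg/kg/day, in each case for 14 days. The design assigned 6 mice to each group, so not every mouse has a library here, and no young group is among the libraries. The reads on genes numbered 29654553 to 35517505 per library in the CON group, 34129850 to 38179496 in PQQ-L and 32395680 to 35221896 in PQQ-H.

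The hippocampus passes signals from the granule cells of the dentate gyrus to the pyramidal neurons of CA3 and from there to those of CA1, and this circuit is known for its part in forming memories. The pyramidal neurons of these fields are glutamatergic, and each field expresses its own set of genes beside a set that the fields share. Wfs1, Fibcd1, Mpped1 and Spink8 are commonly used as CA1 genes, Grik4 and Bok as genes rich in CA3, and Neurod6 and Ociad2 as genes found in several CA fields. Neurod6 and Wfs1 are also known from neurons outside the hippocampus, such as those of the neocortex.

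Promoter windows of 250 bases before the start of transcription were found in RefSeq (GRCm38.p6) for 7 of the 8 genes, 8 windows in all. Neurod6 encodes a basic helix-loop-helix transcription factor, and factors of this family bind E-boxes, which have the letters CANNTG. The windows of 3 genes are shown because they lie wholly outside the annotated gene and set Neurod6 and Fibcd1, whose highest library exceeded the lowest by 60.0-fold and 41.8-fold, beside Bok with 3.19-fold. They are written 5′ to 3′ on the strand of the gene, with CANNTG in capitals. The Neurod6 window is chr6:55681264-55681513 on the minus strand, the Fibcd1 window is chr2:31846006-31846255 on the minus strand and the Bok window is chr1:93685325-93685574 on the plus strand.
Neurod6: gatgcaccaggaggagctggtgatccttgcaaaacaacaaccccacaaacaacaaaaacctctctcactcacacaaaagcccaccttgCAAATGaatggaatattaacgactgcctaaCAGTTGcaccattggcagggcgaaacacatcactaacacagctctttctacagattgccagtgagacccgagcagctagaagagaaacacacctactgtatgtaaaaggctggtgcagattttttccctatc
Fibcd1: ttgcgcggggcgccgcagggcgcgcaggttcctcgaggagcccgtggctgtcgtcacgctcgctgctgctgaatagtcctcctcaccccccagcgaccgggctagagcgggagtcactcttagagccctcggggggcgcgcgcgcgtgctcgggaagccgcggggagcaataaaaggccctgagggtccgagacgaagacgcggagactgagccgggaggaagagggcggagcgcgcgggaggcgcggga
Bok: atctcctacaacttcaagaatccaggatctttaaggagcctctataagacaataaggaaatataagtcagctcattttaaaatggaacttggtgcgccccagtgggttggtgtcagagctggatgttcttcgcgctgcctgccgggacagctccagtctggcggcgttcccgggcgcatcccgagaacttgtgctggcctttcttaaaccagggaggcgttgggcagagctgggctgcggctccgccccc
The Neurod6 window held 2 matches, CAAATG and CAGTTG, which began 162 and 132 bases before the start. The windows of Fibcd1 and Bok held none. CANNTG reads the same on both strands, and it was found in 4 of the 8 windows of these genes and in 66.2% of the 32851 windows of that length in RefSeq. The GC content was 46.0% in the Neurod6 window, 71.6% for Fibcd1 and 55.2% for Bok, against a median of 52.4% over all windows, so Neurod6 and Fibcd1 lay on either side of that median.

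Libraries of the same group differed widely in the expression of these genes. For Neurod6, the FPKM was 2.30, 78.9 and 31.6 in CON 1, 2 and 3, then 75.1, 82.0, 37.7, 115 and 109 in PQQ-L 1 to 5, and 18.6, 22.0, 138 and 97.9 in PQQ-H 1 to 4. CON 1 stood far below all other libraries, and PQQ-H 1 and PQQ-H 2 were lower than every PQQ-L library. For Spink8, which encodes a Kazal-type serine protease inhibitor, the FPKM was 0.0695, 24.6 and 2.25 in CON 1 to 3, then 16.4, 22.8, 7.97, 37.0 and 31.0 in PQQ-L 1 to 5, and 2.46, 4.15, 49.7 and 31.3 in PQQ-H 1 to 4. The lowest Spink8 value rested on 2 reads and the highest on 1417. For Fibcd1, a transmembrane receptor of acetylated groups, the FPKM was 0.744, 18.7 and 2.30 in CON 1 to 3, then 15.7, 19.8, 12.2, 24.1 and 26.1 in PQQ-L 1 to 5, and 4.14, 2.92, 31.1 and 17.8 in PQQ-H 1 to 4. For Grik4, which encodes the kainate receptor subunit GluK4, the FPKM was 1.56, 5.27 and 2.60 in CON 1 to 3, then 5.03, 6.84, 4.20, 6.34 and 7.29 in PQQ-L 1 to 5, and 2.39, 2.24, 7.79 and 5.12 in PQQ-H 1 to 4. In all 4 of these genes the 4 lowest libraries were CON 1, CON 3, PQQ-H 1 and PQQ-H 2, so the low libraries came from both groups and CON 2 sat with the PQQ-L libraries.

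**Figure D1:**
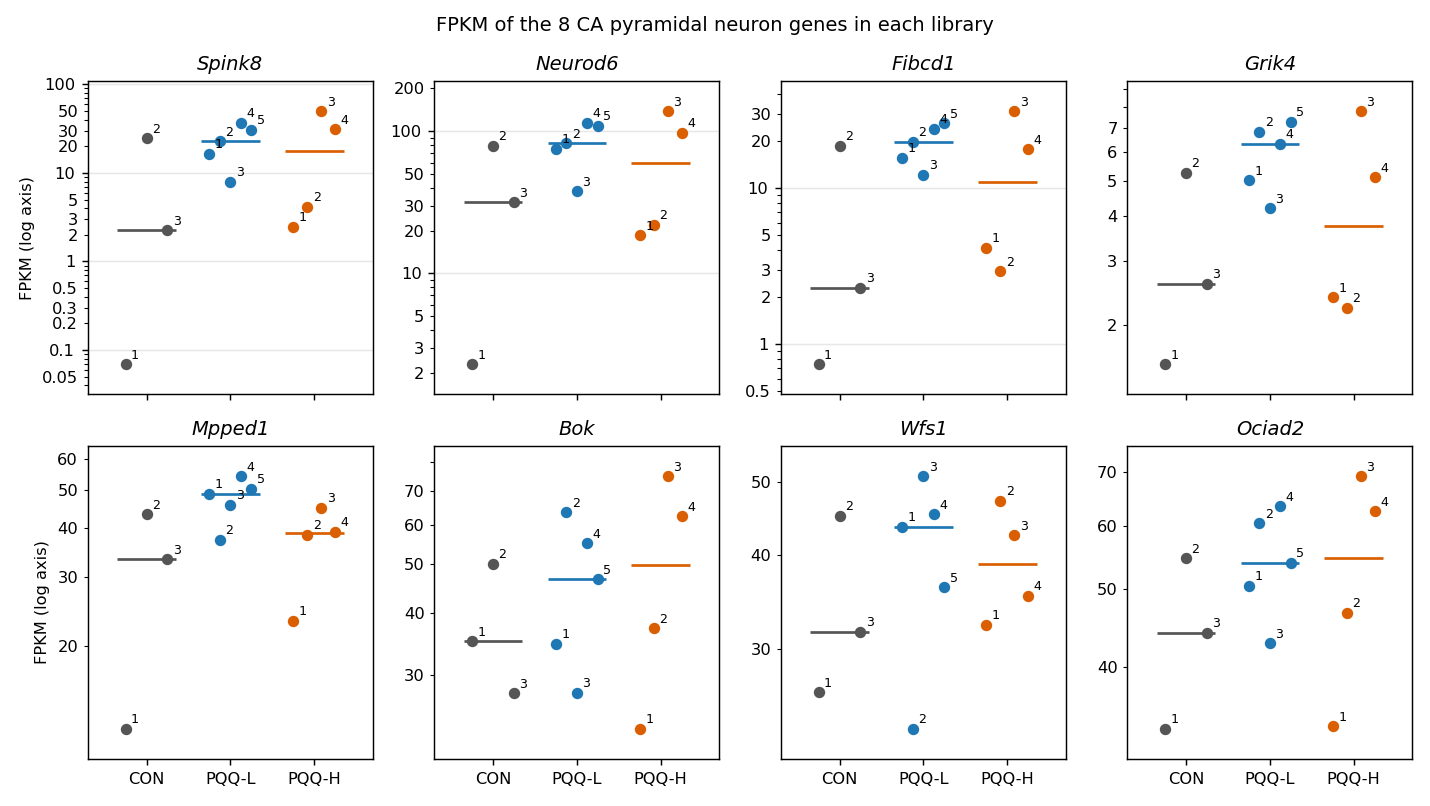
FPKM of each gene on a log axis by group; each point is 1 library with its replicate number and each horizontal line is the median of the group. In the upper row CON 1 is lowest for all 4 genes, at 0.0695 FPKM for Spink8, and PQQ-H 1 and PQQ-H 2 sit apart from PQQ-H 3 and PQQ-H 4; every group overlaps every other group in each of the 8 panels.

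The other 4 genes varied less. For Mpped1, which encodes a protein with a metallophosphoesterase domain, the FPKM was 12.4, 43.4 and 33.3 in CON 1 to 3, then 48.8, 37.3, 45.9, 54.2 and 50.3 in PQQ-L 1 to 5, and 23.2, 38.4, 45.0 and 39.1 in PQQ-H 1 to 4. CON 1 and PQQ-H 1 were the low libraries, and the remaining 10 lay within 33.3 to 54.2. For Bok, a member of the BCL-2 family of cell death regulators, the FPKM was 35.1, 50.2 and 27.6 in CON 1 to 3, then 34.7, 63.6, 27.7, 55.0 and 46.7 in PQQ-L 1 to 5, and 23.5, 37.3, 75.0 and 62.3 in PQQ-H 1 to 4. For Ociad2, a protein with an OCIA domain, the FPKM was 33.5, 54.6 and 44.1 in CON 1 to 3, then 50.5, 60.4, 42.8, 63.5 and 53.9 in PQQ-L 1 to 5, and 33.7, 46.7, 69.2 and 62.5 in PQQ-H 1 to 4. PQQ-H 1 was the lowest library for Bok, CON 1 for Ociad2, and PQQ-H 3 was the highest for both. For Wfs1, which encodes the endoplasmic reticulum membrane protein wolframin, the FPKM was 26.3, 45.2 and 31.6 in CON 1 to 3, then 43.7, 23.5, 51.0, 45.4 and 36.3 in PQQ-L 1 to 5, and 32.3, 47.3, 42.6 and 35.3 in PQQ-H 1 to 4. Wfs1 was the exception in its order, with its lowest and its highest library both in the PQQ-L group.

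The highest library exceeded the lowest by 714-fold for Spink8, 60.0-fold for Neurod6, 41.8-fold for Fibcd1, 4.98-fold for Grik4, 4.39-fold for Mpped1, 3.19-fold for Bok, 2.17-fold for Wfs1 and 2.07-fold for Ociad2. With 2 reads behind its lowest value, the Spink8 ratio has a 95% interval of 197 to 5906 for counting error alone, whereas that of Neurod6 is 51.7 to 70.0. The residual SD within groups, on the log2(FPKM + 0.1) scale, was 2.17 for Spink8, 1.56 for Neurod6 and 1.45 for Fibcd1, and for these genes between 99.1% and 99.8% of the genes tested had a smaller one. It was 0.35 for Ociad2 and 0.37 for Wfs1, while the median over all genes tested was 0.21. CON 1 was the lowest library for 6 of the 8 genes and PQQ-H 3 the highest for 6, while CON 3 and PQQ-H 1 were among the 4 lowest for all 8. By mean level over the 12 libraries, the order was Neurod6 (67.3 FPKM), Ociad2 (51.3), Bok (44.9), Mpped1 (39.3), Wfs1 (38.4), Spink8 (19.1), Fibcd1 (14.6) and Grik4 (4.72). Neighbours in this order overlapped in range, but the highest Grik4 value, 7.79 FPKM, was below the lowest values of Mpped1, Bok, Wfs1 and Ociad2.

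**Figure D2:**
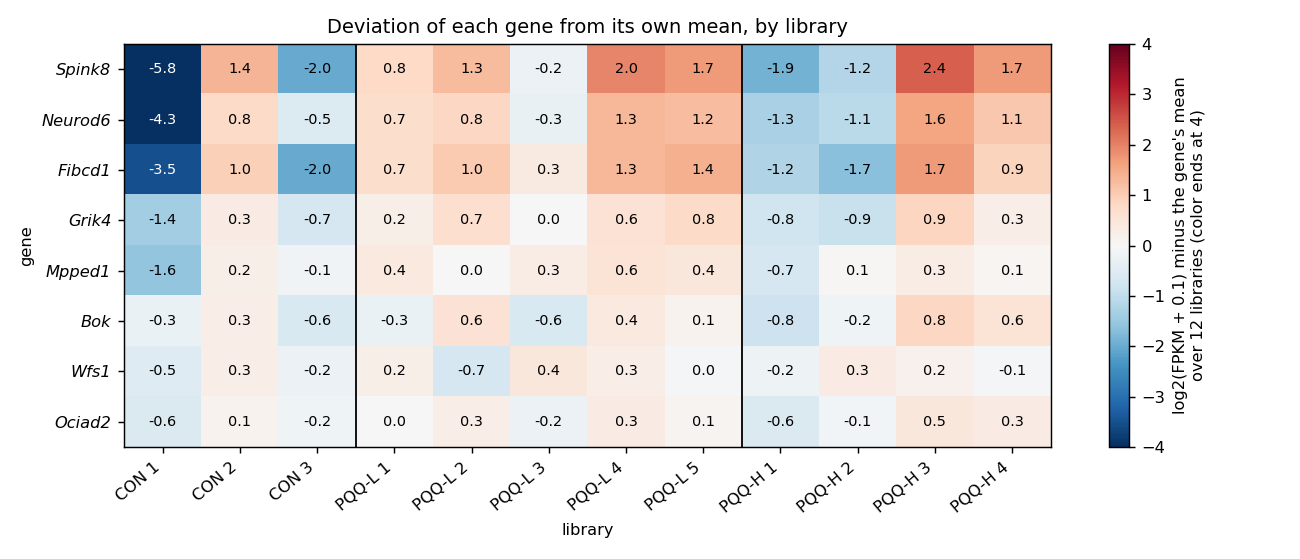
Difference of log2(FPKM + 0.1) from the mean of each gene over the 12 libraries, with libraries in columns, genes in rows and black lines between the groups; blue is below and red above the mean of the gene. The CON 1 column is blue in all 8 rows, whereas CON 2 is above the mean in all 8, and the Wfs1 and Ociad2 rows stay pale.

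The same 4 libraries stood apart in genes of another brain region. The summed FPKM of 16 genes of striatal medium spiny neurons was 4122, 112 and 1713 in CON 1 to 3, between 103 and 256 in the PQQ-L libraries, and 3140, 1730, 117 and 231 in PQQ-H 1 to 4. For all 16 of these genes the 4 highest libraries were CON 1, CON 3, PQQ-H 1 and PQQ-H 2, those lowest for Neurod6, Spink8, Fibcd1 and Grik4. Drd2, the dopamine receptor of one class of medium spiny neurons, had 110, 0.855 and 42.8 FPKM in CON 1 to 3 and 85.1, 31.0, 0.370 and 1.57 in PQQ-H 1 to 4. Six3, a further gene of the list, was at 0 in PQQ-L 1 and PQQ-H 4. The summed FPKM of 8 dentate granule cell genes was 17.1, 89.9 and 27.7 in CON 1 to 3, between 44.7 and 117 in PQQ-L, and 24.3, 25.8, 148 and 94.9 in PQQ-H 1 to 4. For 5 of these 8 dentate genes the 4 lowest libraries were CON 1, CON 3, PQQ-H 1 and PQQ-H 2. C1ql2, a synaptic organizer of granule cells, had 0.183 FPKM in CON 1 and 68.2 in PQQ-H 3, and Lct was at 0 in CON 1, whereas Pdzd2 ran the other way, with 6.12 FPKM in CON 1 and 2.57 in PQQ-H 3. The sums of 15 genes of neurons in general differed less, at 3212, 3727 and 3038 FPKM in CON 1 to 3. They were 3527 to 3658 in PQQ-L and 3055, 3279, 3524 and 3648 in PQQ-H 1 to 4. The 4 lowest of these sums were again in CON 1, CON 3, PQQ-H 1 and PQQ-H 2. The part of these levels in the differences between groups was not tested. In RNA from whole tissue, fewer CA neurons, less RNA of these genes per CA neuron and a larger share of RNA from other regions cannot be told apart.

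**Figure D3:**
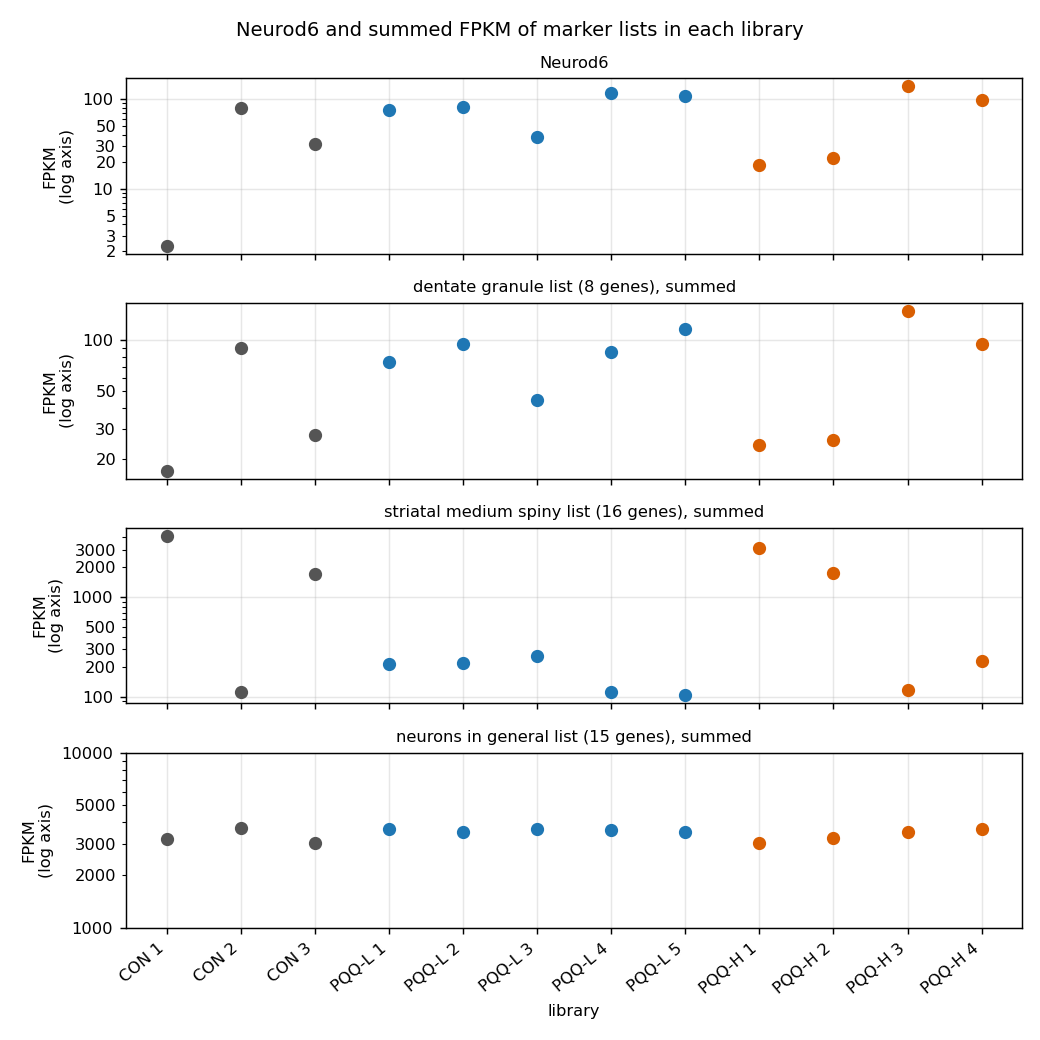
FPKM of Neurod6 and summed FPKM of the dentate granule, striatal medium spiny and neurons in general lists in each of the 12 libraries, on log axes; gray is CON, blue PQQ-L and orange PQQ-H. CON 1, CON 3, PQQ-H 1 and PQQ-H 2 are low for Neurod6 and the dentate list and lie between 1713 and 4122 FPKM for the striatal list, while the lowest panel stays between 3038 and 3727.

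Compared with the CON group, all 8 genes were higher on average in the PQQ-L group, and 0 of the 8 passed the thresholds of a |log2FC| above 1 and an adjusted p below 0.05. Over all genes tested, 0.471% passed them in either direction and 0% as higher, since all 65 that passed were lower. For Neurod6 the PQQ-L mean was 83.7 ± 30.9 FPKM (SD, n = 5) against a CON mean of 37.6 ± 38.7 (SD, n = 3). For Spink8 these means were 23.0 ± 11.5 FPKM (SD, n = 5) against 8.97 ± 13.6 (SD, n = 3), and for Fibcd1 19.6 ± 5.75 (SD, n = 5) against 7.25 ± 9.96 (SD, n = 3). The log2FC was 3.25 (SE 1.40) for Spink8, 2.49 (SE 0.94) for Fibcd1 and 2.10 (SE 1.01) for Neurod6. With limma, the adjusted p values of these genes were 0.237, 0.229 and 0.249. Grik4 had a log2FC of 1.04 (SE 0.44) and Mpped1 of 0.84 (SE 0.34), with limma adjusted p values of 0.237 and 0.235. For Ociad2, Bok and Wfs1 the log2FC was 0.31, 0.26 and 0.21, with 95% intervals of -0.19 to 0.82, -0.57 to 1.08 and -0.33 to 0.75. At an unadjusted p below 0.05, 4 of the 8 were higher (Fibcd1, Mpped1, Grik4 and Spink8), against 8.92% of the genes tested. The median log2FC was 0.94 for the 8 genes and -0.03 for all genes tested, of which 6366 were higher in PQQ-L. In 0 of the 8 did every PQQ-L library exceed every CON library, as it did in 2.96% of the genes tested. CON 2 lay within the PQQ-L range for each gene, and for Bok, Ociad2 and Wfs1 so did at least 1 further CON library.

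The size of these differences and the calls depended on which CON libraries entered the fit. Without CON 1, the median log2FC of the 8 genes in PQQ-L vs. CON was 0.47, with Spink8 at 1.42, Fibcd1 at 1.50 and Neurod6 at 0.64, and an unadjusted p below 0.05 was reached by 0 of the 8. Without CON 2, the median was 1.34 and 5 of the 8 passed both thresholds, whereas 3.15% of all genes tested passed them as higher in that fit. The 5 were Spink8 (log2FC 5.01), Fibcd1 (3.74), Neurod6 (3.16), Grik4 (1.48) and Mpped1 (1.21), with limma adjusted p values of 0.0303, 0.0265, 0.0459, 0.0399 and 0.0360. The names of the libraries begin with L in 7 cases and R in 5, a letter not explained in the sources used here. Within the libraries of letter L the PQQ-L mean was above the CON mean for all 8 genes, by a median difference of 0.66 on the log2(FPKM + 0.1) scale. Within letter R, where CON 1 is the only control library, all 8 were higher too, by a median of 1.75.

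**Figure D4:**
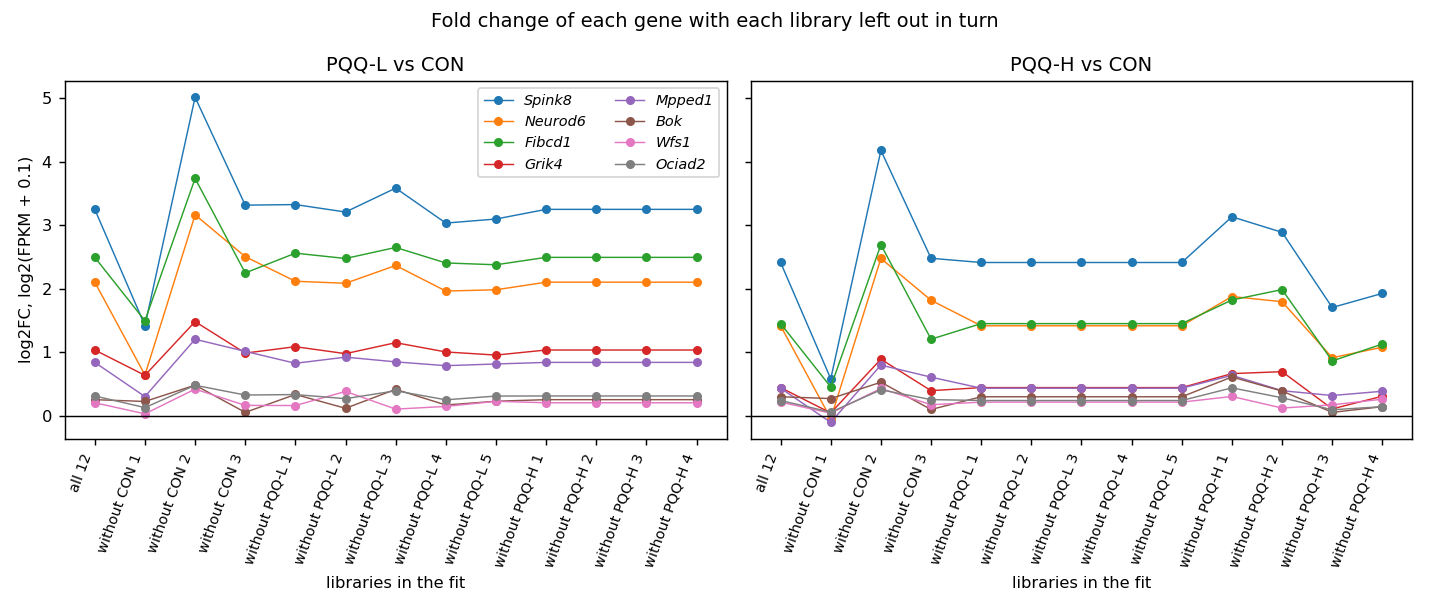
The log2FC of each gene from the fit of all 12 libraries and with each library left out in turn, in PQQ-L vs. CON (left) and PQQ-H vs. CON (right); colors mark the genes and the lines only join the points of 1 gene. Leaving out CON 1 lowers Spink8 from 3.25 to 1.42 in PQQ-L, and leaving out CON 2 raises it to 5.01, while leaving out a PQQ-L library moves it less.

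In PQQ-H vs. CON all 8 genes were again higher on average, and 0 of the 8 passed the thresholds, against 0.819% of the genes tested in either direction and 0% as higher, all 113 that passed being lower. The mean Neurod6 level was 69.1 ± 58.7 FPKM (SD, n = 4) in PQQ-H, and that of Spink8 was 21.9 ± 22.7 (SD, n = 4). The log2FC was 2.41 (SE 1.47) for Spink8, 1.45 (SE 0.99) for Fibcd1 and 1.42 (SE 1.06) for Neurod6, with limma adjusted p values of 0.666, 0.709 and 0.736. Grik4, Mpped1, Bok, Ociad2 and Wfs1 had log2FC values of 0.44, 0.44, 0.30, 0.24 and 0.22. The median log2FC of the 8 genes was 0.44, against -0.03 over all genes tested, of which 6126 were higher in PQQ-H. At an unadjusted p below 0.05, 0 of the 8 were higher, against 1.85% of the genes tested. In 0 of the 8 did all PQQ-H libraries exceed all CON libraries, a pattern found in 1.36% of the genes tested. Without CON 1 the median of the 8 was 0.05, and Neurod6 and Mpped1 had negative values of -0.043 and -0.10. Within letter L, 4 of the 8 genes were higher in PQQ-H, with a median difference of 0.03, so the higher levels did not hold within that letter. Within letter R all 8 were higher, by a median of 1.65, but this sets PQQ-H 4 alone against CON 1 alone. Both comparisons use the same 3 CON libraries.

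Between the doses, the mean FPKM of 7 of the 8 genes was highest in PQQ-L, intermediate in PQQ-H and lowest in CON, and Bok was the exception, with 49.5 ± 23.4 FPKM (SD, n = 4) in PQQ-H against 45.5 ± 14.6 (SD, n = 5) for the lower dose. For the comparison of PQQ-H with PQQ-L, the 8 genes included 0 that passed the thresholds, the share of all genes tested being 0%. By log2FC, 2 of the 8 (Bok and Wfs1) were higher in PQQ-H and 6 lower. The mean FPKM of Wfs1 was slightly lower in PQQ-H, at 39.4 against 40.0. At an unadjusted p below 0.05, 0 of the 8 differed in either direction, while 3.55% of the genes tested were higher in PQQ-H and 4.60% lower. In 0 of the 8 did the libraries of the doses separate. All PQQ-H libraries were above all PQQ-L libraries in 1.42% of the genes tested and below them in 3.33%. Fibcd1 had the lowest log2FC, -1.04, with a 95% interval of -2.94 to 0.86. For Wfs1 it was 0.01 with an interval of -0.49 to 0.51, and for Bok 0.05 with an interval of -0.72 to 0.81. The median log2FC of the 8 was -0.50. Within letter L it was lower, with a median difference of -0.78 and 0 of the 8 higher in PQQ-H. Within letter R, where PQQ-H 4 is the only PQQ-H library, the median difference was 0.25, with 5 of the 8 higher.

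**Figure D5:**
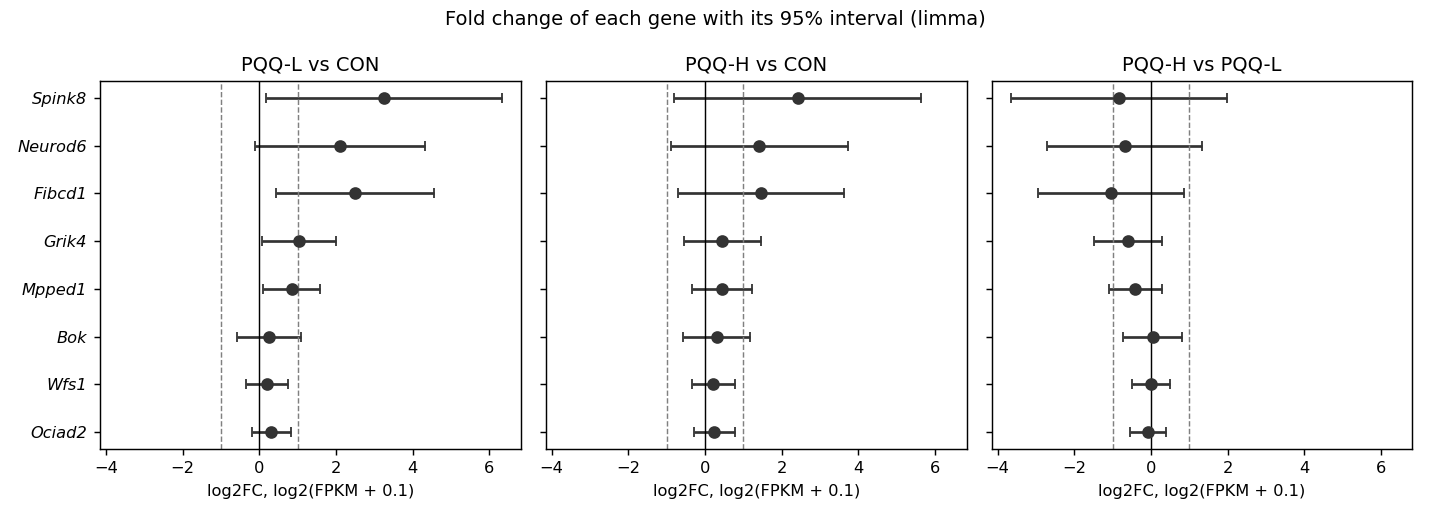
The log2FC of each gene (points) with its 95% interval from limma (bars) for each PQQ group against CON and for the higher against the lower dose; dashed lines mark a log2FC of -1 and 1. All points lie above 0 in the left and middle panels, and the intervals of Spink8, Neurod6 and Fibcd1 are the widest in each panel.

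Other genes of the CA fields were listed from general knowledge of the tissue, but with earlier results of these data known. Of 19 such genes, 18 passed the filter, and 0 of these passed the thresholds in any comparison. In PQQ-L 12 of the 18 were higher, with a median log2FC of 0.45, and in PQQ-H 11 were higher, with a median of 0.34. Of all 13796 genes tested, 6366 were higher in PQQ-L and 6126 in PQQ-H. At an unadjusted p below 0.05, 2 of the 18 were higher and 2 lower in PQQ-L. In PQQ-H, 1 was higher and 0 were lower. Of all genes tested, 1231 were higher and 1603 lower at that limit in PQQ-L, and 255 and 1087 in PQQ-H. Zbtb20, a zinc finger factor of hippocampal pyramidal and granule neurons, had 1.01, 4.52 and 2.40 FPKM in CON 1 to 3, 3.70 to 5.69 in PQQ-L and 2.36 to 7.54 in PQQ-H. Neurod2, a close relative of Neurod6, had 2.61, 35.6 and 17.8 FPKM in CON 1 to 3, and its log2FC in PQQ-L was 1.63 with a limma adjusted p of 0.244. Nectin3, a cell adhesion molecule and CA3 gene, had 0.194 FPKM in CON 1 and 3.69 in PQQ-H 3. Of the 6 CA2 genes tested, 2 (Rgs14 and Amigo2) were higher on average in PQQ-L, and the median over the 6 was -0.58. Both were lowest in CON 1, at 13.0 FPKM for Rgs14 and 1.94 for Amigo2. Pcp4, a calmodulin-binding protein that is also abundant in the striatum and thalamus, had 2098 FPKM in CON 1, 355 in CON 2 and 856 in CON 3, and 122 to 361 in PQQ-L. Coch, from the CA3 list, also had its highest level in CON 1, at 34.3 FPKM, and its lowest in PQQ-H 3, at 0.128.

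Family relatives of the 8 genes were compared as well, together with Cisd2, which like Wfs1 is a Wolfram syndrome gene, and 11 of these 12 genes were tested. In PQQ-L 6 of the 11 were higher, with a median log2FC of 0.05, and 0 passed both thresholds. Bak1, a pore-forming relative of Bok, fell by 0.48 on the log2 scale in PQQ-L vs. CON, with a limma adjusted p of 0.0422, short of the fold threshold. Its level was 7.48, 6.51 and 7.74 FPKM in CON 1 to 3 and 4.40 to 5.65 in PQQ-L. Among the kainate receptor subunits, Grik2 had a log2FC of 0.36 in PQQ-L with a limma adjusted p of 0.200, and Grik5 had one of 0.05. Ociad1, the paralog of Ociad2, had 44.2 FPKM in CON 1 and 57.7 in PQQ-H 4, the lowest and the highest of its 12 values.

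Likeness of pattern was measured as the root mean square difference over the 12 libraries between the standardized log2(FPKM + 0.1) of a gene and the mean standardized profile of the 8 genes. It is given as a description, since the profile includes the genes themselves. Of the 8, Spink8 was closest to that profile (0.203 SD units), followed by Neurod6 (0.273), Fibcd1 (0.292), Grik4 (0.334), Ociad2 (0.366) and Mpped1 (0.410), with Bok (0.682) and Wfs1 (0.921) farthest. The median over the 13788 other genes was 1.32. The nearest of the other genes were Prickle2, a planar cell polarity protein (0.176), Sh3rf1, a ubiquitin ligase (0.180), Prkca, protein kinase C alpha (0.181), Rapgef5, a guanine nucleotide exchange factor (0.188), and Nectin3 (0.189). Each was lowest in CON 1 and highest in PQQ-H 3, with Prkca at 4.76 and 36.0 FPKM in these libraries. The least similar genes were Klhl1, Itga9, Gpr139, Marchf2 and Mme, all at 1.77 and all highest in CON 1. Mme, which encodes the peptidase neprilysin, had 7.74 FPKM in CON 1 and 0.330 in PQQ-H 3.

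Marker genes of other cell types and regions were summarized beside the CA genes. CON 1, CON 3, PQQ-H 1 and PQQ-H 2 each exceeded every other library in the summed FPKM of the oligodendrocyte, microglia and endothelium lists. The same held for the lists of GABA interneurons and of cholinergic genes of the basal forebrain. Single genes of these lists did not all follow the sums. Of the GABA list, Vip was lowest in CON 1 and PQQ-H 1, at 4.13 and 6.12 FPKM, and Sst was highest in PQQ-L 3, at 315. Of the microglia list, P2ry12 had 13.0 and 13.3 FPKM in CON 1 and CON 3 against 18.0 in PQQ-H 4. The 15 choroid plexus genes summed to 1798 to 5990 FPKM in CON, 102 to 200 in PQQ-L and 78.2 to 95.5 in PQQ-H, and 12 of them in PQQ-L and 13 in PQQ-H passed the thresholds as lower. Their summed level was higher in all 3 CON libraries than in any other library, and it was highest in CON 3 rather than CON 1. The 16 striatal genes had median log2FC values of -2.87 (PQQ-L) and -0.84 (PQQ-H), and 0 of them passed. For 6 cholinergic genes of the basal forebrain the medians were -3.26 and -1.10, and for 9 thalamic genes -1.19 and -1.32, with 0 passing. Among 8 neocortical genes the medians were -0.10 and -0.45. The 11 genes of excitatory neurons had medians of 0.87 and 0.67, with 8 of the 11 higher on average in PQQ-L and 10 in PQQ-H. Slc17a7, the vesicular glutamate transporter, had 118, 461 and 297 FPKM in CON 1 to 3. Nrgn and Baiap2 of this list ran the other way, with 1177 and 68.7 FPKM in CON 1 against 741 and 29.4 in CON 2. The dentate list had medians of 1.34 and 0.64, and genes of neurons in general 0.25 and 0.06. For GABA interneurons the medians were -0.44 and -0.16, for oligodendrocytes -0.60 and -0.33, for astrocytes 0.16 and -0.07, for microglia -0.20 and 0.03, for endothelium -0.22 and -0.17 and for blood -0.58 and 0.13, and 0 genes of these lists passed the thresholds.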

How the data were processed

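Total RNA was extracted with TRIzol, libraries were prepared with the VAHTS Universal V10 kit and sequenced on a NovaSeq instrument. Reads were trimmed by the authors in fastp, aligned in HISAT2 and assigned to genes in HTSeq-count, and the authors deposited FPKM values, 1 column per library. The submitters' processing notes name the build mm39, while the annotation, the strandedness and the versions are not given in the sources used here. The authors tested genes with DESeq2, a step not repeated here. Libraries were grouped by the labels, and 0 columns of other samples were present.

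FPKM was divided by gene length and library total before deposit. Whole reads were recovered from the ratios between libraries (tolerance 0.02 reads) for 100% of the 25563 genes above 0 in at least 2 libraries, and they were used for depth and counting error only, and for a voom alternative. Intervals from reads cover counting error, not the spread between mice. No pair of libraries within a group was a duplicate (over 19 pairs, chi-square divided by its degrees of freedom was at least 17.4). Overlapping genes were sought in GENCODE M21, where Grik4 holds 2 small RNA genes on its strand and the other 7 hold none.

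Genes whose mean FPKM reached 0.5 (13796) entered a single limma-trend model of the 12 libraries on log2(FPKM + 0.1), run in limma 3.58.1 under R 4.3.3, and p values were adjusted by Benjamini-Hochberg over all of them. This scale understates the change of low genes. Thresholds were a |log2FC| above 1 and an adjusted p below 0.05. The labels number the libraries within groups and do not say that each is a separate mouse, so the p values measure the spread between these libraries. Summaries and plots were made in Python 3.11.15 (pandas 2.3.3, numpy 2.4.6, matplotlib 3.10.9, scipy 1.17.1). The scripts were tested on simulated data. The 8 genes and the 19 gene lists were chosen with earlier results of these data known. Apart from the 8 genes, those named are the 3 genes of a list with the smallest limma p, defining markers, and the 5 genes most and least like the mean profile. Pcp4, Coch, Zbtb20, Neurod2, Ociad1, Grik5, Rgs14, Amigo2, C1ql2, Lct, Nrgn, Baiap2, Vip and Sst were named for their levels or list after their values were seen where that rule did not name them. The alternatives were other pseudocounts, filters, scalings and models, the first letter of the library name, the replicate number as a block, and each library left out.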

Additional observations from a re-analysis of the deposited data

How the results depend on the processing

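Fold changes were recomputed under 26 alternatives, and counts also without the fold threshold. In these, 158 counts and medians of the 8 genes were kept and 1 count moved. A count was kept when equal, and a median when it moved by less than 0.65 on the log2 scale. This limit is the SD within groups of the per-library median deviation of the 8 genes, so a kept median could cross a log2FC of 1. In PQQ-L vs. CON it was 0.94 in the main fit and 1.14 with array quality weights. Of the single fold changes, 601 kept their direction and their call at both thresholds together. Such a log2FC could still cross 1, as for Grik4 in PQQ-L vs. CON, from 1.04 to 0.82 with a pseudocount of 1. A further 5 passed both thresholds, all in PQQ-L vs. CON without CON 2, and 18 changed sign. The differences within letters, given with each comparison, are not among these. The number of the 8 genes past the thresholds in PQQ-L vs. CON ranged from 0 to 5 when 1 library was left out, and it was 0 in PQQ-H vs. CON. The range of the median log2FC was 0.47 to 1.34 in PQQ-L vs. CON, 0.05 to 0.85 in PQQ-H vs. CON and -0.72 to -0.16 in PQQ-H vs. PQQ-L. With 1 library left out, the log2FC in PQQ-H vs. CON ranged from -0.043 to 2.48 for Neurod6 and from -0.102 to 0.80 for Mpped1. In PQQ-H vs. PQQ-L it ranged from -0.200 to 0.36 for Bok, from -0.168 to 0.11 for Wfs1 and from -0.217 to 0.13 for Ociad2. The other sign changes were all in PQQ-H vs. PQQ-L and close to 0. With TPM the log2FC was -0.042 for Bok and -0.077 for Wfs1, and TPM moved the median of all genes from -0.02 to -0.11 in that comparison. For Wfs1 it was -0.025 with quantile normalization, -0.030 with array quality weights and -0.074 with the first letter as a covariate, and for Ociad2 it was 0.033 with array quality weights. The cause was not tested. Libraries of different groups were correlated after the group mean of each gene was subtracted. These correlations ran from -0.62 to 0.72 for libraries of the same number. For libraries of different numbers they ran from -0.765 to 0.785. Ranges so alike cannot tell whether the replicate numbers pair the libraries. With the replicate number as a block, the 8 genes had medians of 0.80, 0.36 and -0.45 in the order of comparisons above. In that fit Wfs1 had -0.013 in PQQ-H vs. PQQ-L, and 0 genes passed the thresholds. An unadjusted p below 0.05 in PQQ-L vs. CON was reached there by 0 of the 8 in place of 4. It was reached by 5 with array quality weights and by 5 with the first letter as a covariate. Of all 13796 genes tested, 867 and 1306 reached it as higher in these fits. It was reached by 3 with a pseudocount of 1 and by 3 with voom. With 1 library left out, it was reached by 0 of the 8 without CON 1 and by 5 without CON 2. Without CON 3, PQQ-L 4 or PQQ-L 5 it was reached by 1, and without PQQ-L 1 or PQQ-L 2 by 2. Of all genes, 703, 767 and 621 reached it as higher without CON 3, PQQ-L 4 and PQQ-L 5. Without PQQ-L 1 and PQQ-L 2 these counts were 905 and 949. In PQQ-H vs. CON without CON 2 it was reached by 4 of the 8, in place of 0, and by 1247 of all genes as higher. The number of CON libraries, 3, limits the precision of the control level, and for Spink8 in CON 1 the depth of 2 reads does so too.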
